A study of Mus musculus with 38 samples.

Results

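The response of spleen to low-dose X-rays was compared between B6.C and C57Bl6/J, inbred mice that share a C57 background. The strain label chose the arrays: of the 38 two-colour arrays of the study, 8 carry B6.C RNA and 4 carry C57Bl6/J RNA (written BI6Jx in the array labels), so that 12 arrays enter the comparison. Each array held RNA of irradiated mice in one dye and RNA of sham-irradiated mice of the same strain in the other. The irradiated mice had received 10 rad (10 cGy) and spleens were taken 3.5 h later. All mice were male, 10 to 14 wk old by the labels, whereas the paper's methods give 8 to 10 wk. Irradiated RNA carried Cy5 on 4 B6.C and 2 C57Bl6/J arrays and Cy3 on the remaining 4 B6.C and 2 C57Bl6/J arrays. By the methods, irradiated and sham animals were paired at random and each pair was hybridised in both dye orientations, so that arrays repeat mice and p-values over 12 arrays can be too small. The labels mention no allele, transgene or second agent in either strain. In mouse nomenclature the name B6.C stands for a C57BL/6 background that carries a donor segment from BALB/c, but the labels name no segment, so which genes differ in sequence between the strains is not known here.

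Spleen is a lymphoid organ that filters blood. Its white pulp holds B cell follicles and T cell zones, and its red pulp holds macrophages and, in mice, red cell precursors. Ionizing radiation breaks DNA, and in lymphocytes the damage activates the kinase ATM and the transcription factor p53, whose targets stop the cell cycle, repair DNA or start apoptosis. A low dose starts the same pathways weakly, and inbred strains are known to differ in sensitivity to radiation, with BALB/c more sensitive than C57BL/6. Comparing strains that share most of their genome asks how far a response measured in one holds in its close relative.

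Every spot of an array comes with one signed score. Neither the scale of the scores nor the dye that stands on top is known, so no fold change is given. Each array was centred on the median of its probes, and the sign was turned where irradiated RNA carried Cy3. A positive turned score then means more signal in irradiated than in sham mice if the scores put Cy5 over Cy3, and less if they put Cy3 over Cy5. The response of a strain is the mean of the turned scores over both dye orientations, each orientation weighted equally, which removes a constant dye bias. The strain difference is the response of B6.C minus that of C57Bl6/J.

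The arrays themselves differed in how well they agreed. The B6.C arrays held values for 13819 to 19860 probes and the C57Bl6/J arrays for 12059 to 17087, of 21618 probes in all. Before the sign was turned, C57Bl6/J arrays 11 and 96 (irradiated RNA in Cy5) correlated with array 95 (in Cy3) at r = 0.73 and 0.80 across probes, so their turned scores ran opposite ways, while array 97 (in Cy3) correlated with these 3 arrays at -0.48 to -0.57. Pairs of B6.C arrays of one orientation correlated at -0.45 (arrays 49 and 53) to 0.50 (arrays 50 and 54). Arrays 97, 50 and 53 correlated below -0.3 with 8, 4 and 3 of the 18 other arrays of their orientation in the study, and array 95 with 2 (one of them array 97), although their dyes were the same. The direction of these arrays is therefore not settled, and the main counts are also given with their signs turned.

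No probe passed the test of a strain difference. Of 9239 probes tested, limma with Benjamini-Hochberg adjustment called 0 at an adjusted p under 0.05 (0% of the probes, lowest adjusted p = 0.613), and 704 (7.62%) had an unadjusted p under 0.05. Of these 704 probes, 205 (2.22% of all probes) had a positive and 499 (5.4%) a negative difference. The median absolute difference was 0.471 against a median standard error of 0.531, so the difference of a typical probe was smaller than its error. The count stayed at 0 with the sign of array 97, 50 or 53 turned, and was 1747 (131 positive and 1616 negative) with that of array 95 turned.

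One C57Bl6/J array set this count. Without array 95 the same test called 1894 of 9722 probes, 543 positive and 1351 negative, and called the C57Bl6/J response itself at 2400 probes. That fit leaves array 97 as the lone C57Bl6/J array with irradiated RNA in Cy3 and assumes that it varied like the arrays of the other groups. Leaving out any other array gave 0 or 1 call.

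The dye orientation divided the strain difference as well. Over 13005 probes measured with irradiated RNA in Cy5, the strains differed at 1456 (11.2%), 2 of them positive and 1454 negative. Over 10295 probes measured with irradiated RNA in Cy3, 0 were called by limma and 103 had an unadjusted p under 0.05. The median standard error was 0.828 in the Cy3 fit and 0.596 in the Cy5 fit, and the 2 C57Bl6/J arrays of the Cy3 fit, 95 and 97, correlated at -0.57, so that 0 calls do not show that the strains were alike there. Of the Cy5 calls, 1083 were also measured in the Cy3 orientation, and 230 of these (21.2%) had the same sign there. Within one orientation a strain difference and a strain-specific dye bias cannot be told apart. Over all 9239 probes the difference had one sign in both orientations at 4497 (48.7%), 2521 positive and 1976 negative, and the differences of the 2 orientations correlated at r = -0.231 across probes, which are not independent of each other. The share with one sign was 36.9% with array 97 turned, 45.4% with array 50, 45.8% with array 53 and 67.8% with array 95.

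**Figure D1:**
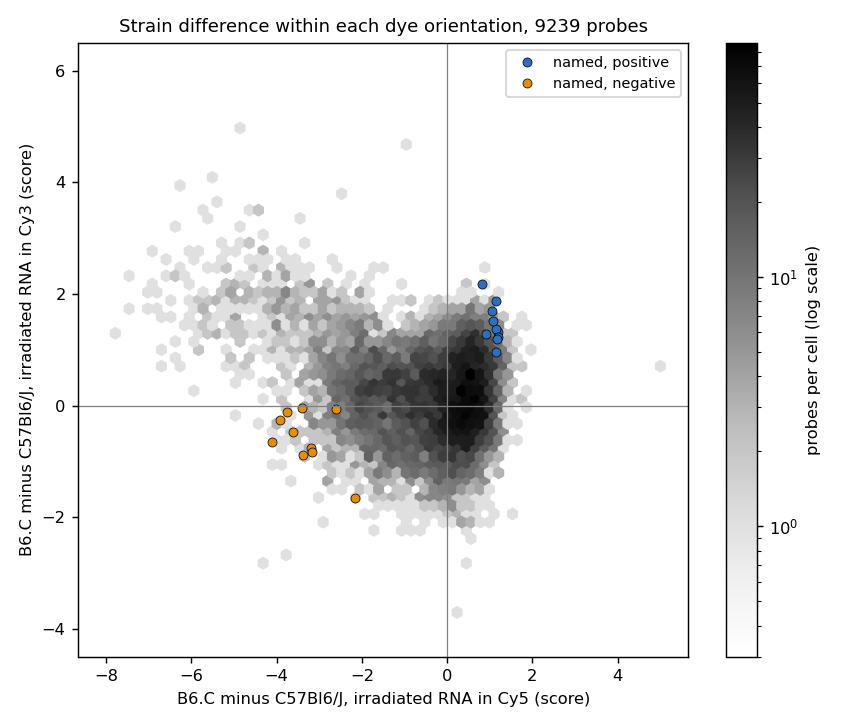
Strain difference (B6.C minus C57Bl6/J, score) of 9239 probes with irradiated RNA in Cy5 (horizontal) and in Cy3 (vertical), with darker cells for more probes on a log scale. The 10 named genes on the positive side lie away from 0 on both axes, and the 10 on the negative side lie at -4.1 to -2.16 in Cy5 and at -1.65 to -0.0357 in Cy3.

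Among the 704 probes with an unadjusted p under 0.05, the sign was shared by both orientations at 571 (81.1%), of which 166 have a gene symbol. All 205 probes with a positive difference were among them. Their median difference was 0.998 in Cy5 and 1.29 in Cy3. On C57Bl6/J arrays 11, 96, 95 and 97 these 205 probes had median scores of -0.77, -0.614, 0.0224 and -1.85. The medians on the 8 B6.C arrays lay between -0.174 and 1.12, so in Cy3 array 97 stood apart and array 95 did not. The remaining 366 had a negative difference, with a median of -2.1 in Cy5 and -0.717 in Cy3. On C57Bl6/J arrays 11, 96 and 97 these 366 probes had median scores of 1.76, 1.21 and 1.39, and on array 95 of -0.917, while the medians on the 8 B6.C arrays lay between -0.959 and 0.059.

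The genes with the smallest p among those of one sign were read out on both sides, 10 on each. All 20 had an adjusted p of 0.613 (limma), so the values that follow describe leading genes and not called ones. Their chromosomes are those of the mouse assembly GRCm38.p6. With array 97 turned, the 10 positive differences shrank to between 0.0387 and 0.967. The 10 negative ones then lay between -2.48 (Nts) and -0.604 (Cul3), and no gene of either side passed the test.

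On the positive side stood Ms4a6b on chromosome 19, a membrane protein of the MS4A family found on immune cells. Its turned score was -0.138 at the lowest, 0.486 at the median and 1.03 at the highest over 8 B6.C arrays, against -1, -0.75, -0.699 and -0.565 on C57Bl6/J arrays 11, 96, 95 and 97. The strains did not overlap, and 7 of 8 B6.C arrays were above 0 while 0 of 4 C57Bl6/J arrays were. The difference was 1.25 (SE 0.385, unadjusted p = 0.0052 by limma), 1.19 in the Cy5 and 1.31 in the Cy3 orientation.

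Irf9 on chromosome 14 encodes the DNA-binding subunit of the complex that turns on interferon-stimulated genes. It was above 0 on 8 of 8 B6.C arrays, from 0.0372 through a median of 0.456 to 1.19, and below 0 on all 4 C57Bl6/J arrays, at -0.805, -0.51, -0.325 and -0.732 on arrays 11, 96, 95 and 97. The difference of 1.05 (SE 0.401) was 1.14 in Cy5 and 0.955 in Cy3. Again the arrays of the strains did not overlap.

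Fbn2 on chromosome 18, a fibrillin of the microfibrils that hold elastic fibres and store TGF-beta, was above 0 on 8 of 8 B6.C arrays, with a lowest score of 0.125, a median of 0.364 and a highest score of 1.39. On C57Bl6/J arrays 11, 96, 95 and 97 it scored -0.443, -0.722, 0.0399 and -1.92. The highest C57Bl6/J value lay below the lowest B6.C value. Psmc3 on chromosome 2, an ATPase of the regulatory particle of the proteasome, scored between -0.0188 and 0.961 (median 0.147) on the 7 B6.C arrays that measured it, against -0.743, -0.719, -0.448 and -1.13 on C57Bl6/J arrays 11, 96, 95 and 97. Its strains did not overlap either, and its difference was 1.1 (SE 0.425).

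The other genes on the positive side overlapped between the strains. Rpl37a, a protein of the large ribosomal subunit, scored -0.639 to 0.874 in B6.C (median 0.385) and -1.25, -1.06, -0.00421 and -2.53 on C57Bl6/J arrays 11, 96, 95 and 97, for a difference of 1.51 (SE 0.489). Yaf2, which joins a Polycomb repressive complex, scored -0.865 to 1.12 in B6.C (median 0.504) and -1.24, -0.447, -0.0865 and -2.92 on the same C57Bl6/J arrays. In both genes array 97 was the lowest of all 12 arrays and array 95 stood nearest to B6.C. Atp6v1b2, a subunit of the proton pump that acidifies lysosomes, differed by 1.37 (SE 0.525), and Nat8, an acetyltransferase, by 1.29 (SE 0.481). The genes 1810009A15Rik and BC005537, whose functions are not described here, differed by 1.26 and 1.19.

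Over all 9239 probes the scores of the 2 strains did not overlap at 41 (0.444%), with B6.C higher at 35 and lower at 6. Of these, 13 have a symbol, and all 13 were higher in B6.C, with differences of 0.713 to 1.25. They are the 4 genes above and, chosen after their values were seen, Tsc22d3, Ly6c1, Krt33a, Mpdu1, Cfl1, Lgals2, Cert1, Saa3 and Kcna1. Tsc22d3, the glucocorticoid-induced leucine zipper, scored -0.188 to 1.51 in B6.C (median 0.424) and -0.321, -0.268, -0.504 and -0.775 on C57Bl6/J arrays 11, 96, 95 and 97. Ly6c1, a surface protein of monocytes and T cells, scored -0.0324 to 1.73 over 7 B6.C arrays (median 0.419) and -0.944, -0.227, -0.274 and -0.372 on the same C57Bl6/J arrays. Cfl1 encodes cofilin, which severs actin filaments, and Saa3 an acute-phase protein of macrophages, and their differences were 0.958 and 0.713. The share of 0.444% was not set against that of random splits of the arrays. The lack of overlap at single genes is therefore a description and no evidence of a strain difference.

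**Figure D2:**
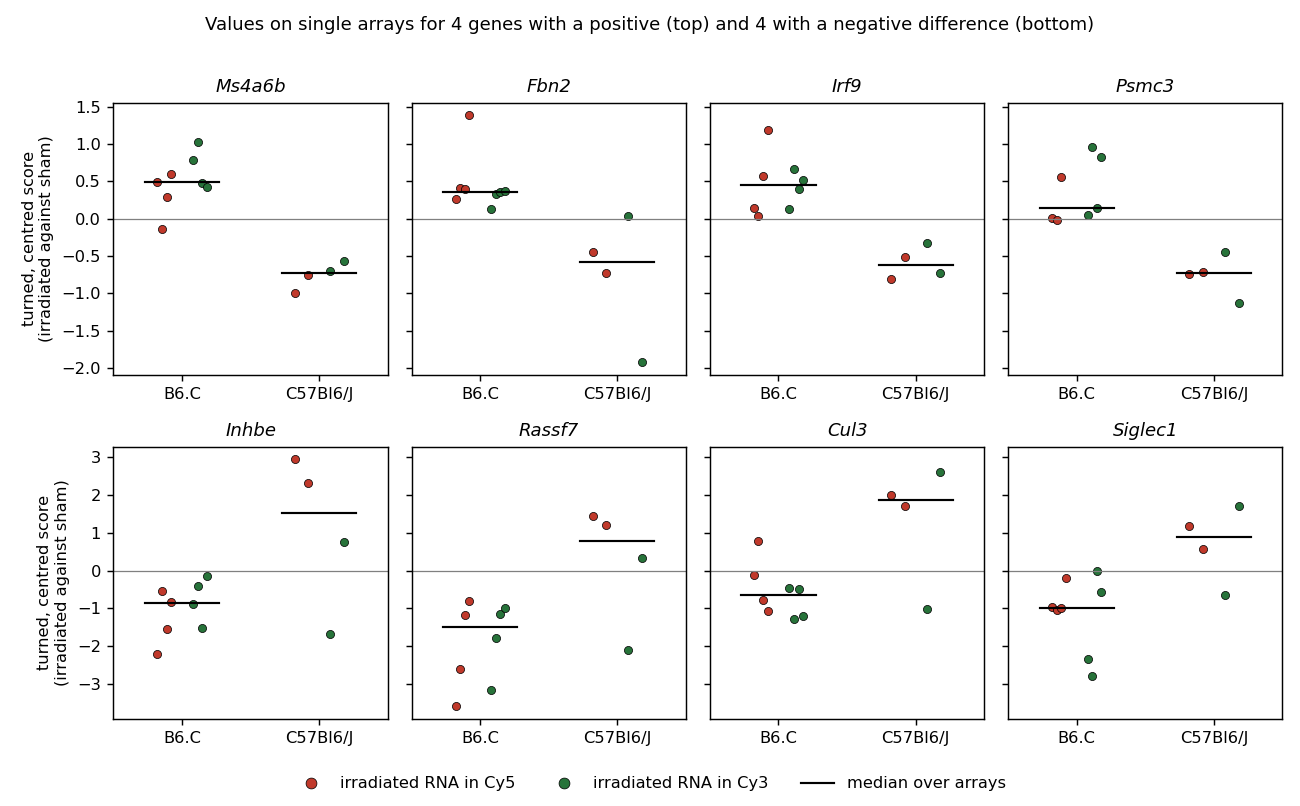
Turned, centred score (vertical) on each of 8 B6.C arrays (7 for Psmc3) and 4 C57Bl6/J arrays, coloured by the dye of the irradiated RNA, with black bars at the median of each strain. The top row holds the 4 leading positive genes whose strains did not overlap, so every B6.C array lies above every C57Bl6/J array by choice. In the bottom row 1 C57Bl6/J array with irradiated RNA in Cy3 (array 95) lies among or below the B6.C arrays.

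On the negative side the strains overlapped at each of the 10 genes. Inhbe on chromosome 10, which encodes the beta E subunit of activins and inhibins, had the smallest p (0.00114 unadjusted, limma). It was below 0 on 8 of 8 B6.C arrays, from -2.2 through a median of -0.867 to -0.138, and scored 2.95, 2.31, -1.69 and 0.744 on C57Bl6/J arrays 11, 96, 95 and 97. Array 95 thus stood inside the range of B6.C and the other 3 C57Bl6/J arrays above it. The difference was -2.09 (SE 0.526), -3.91 in Cy5 and -0.267 in Cy3.

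Slc2a3, the glucose transporter GLUT3 of lymphocytes and neurons, moved little on the B6.C arrays, with scores of -0.608 to 0.302 (median -0.221). On C57Bl6/J arrays 11, 96, 95 and 97 it scored 5.79, 1.87, -0.639 and 1.77. Its difference of -2.38 (SE 0.639) was therefore carried by the C57Bl6/J arrays, with array 11 the highest. Cul3 on chromosome 1, the scaffold of a family of ubiquitin ligases, differed more evenly in the 2 orientations, by -2.16 in Cy5 and -1.65 in Cy3. It scored -1.28 to 0.776 in B6.C (median -0.634) and 2.01, 1.71, -1.01 and 2.6 on C57Bl6/J arrays 11, 96, 95 and 97.

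By their mean responses, Rassf7, Plaat1 and Nts were low in B6.C more than high in C57Bl6/J. Rassf7, a Ras-association domain protein, was below 0 on 8 of 8 B6.C arrays, from -3.59 through -1.48 to -0.813, with a response of -1.91 (SE 0.362, adjusted p = 0.0501 by limma), against a C57Bl6/J response of 0.226 (SE 0.513). Plaat1, a phospholipase and acyltransferase, was also below 0 on 8 of 8 B6.C arrays, with responses of -1.19 in B6.C and 0.806 in C57Bl6/J. Nts, the precursor of the peptide neurotensin, had responses of -1.36 and 0.687 in B6.C and C57Bl6/J. On C57Bl6/J arrays 11, 96, 95 and 97 Rassf7 scored 1.45, 1.2, -2.1 and 0.345, and Plaat1 2.74, 1.19, -1.98 and 1.27. Nts scored 2.33, 2.08, -0.795 and -0.869 there. The small C57Bl6/J means thus rest in part on array 95, whose direction is not settled.

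The remaining negative genes were Kif4, a kinesin of the mitotic spindle, Golga4, a golgin of the trans-Golgi network, Gas1, a membrane protein of growth-arrested cells, and Cyth1, an exchange factor for ARF proteins. Their differences ran from -1.97 (Golga4) to -1.33 (Cyth1). Kif4, Gas1 and Cyth1 differed by -3.75, -3.41 and -2.6 in the Cy5 orientation and by -0.11, -0.0357 and -0.0645 in the Cy3 orientation, so in these 3 genes the shared sign rested on values near 0. All 10 negative genes passed the test (adjusted p under 0.05, limma) in the Cy5 orientation alone, without array 95 and with array 95 turned, and 0 of them in the Cy3 orientation alone. Of the 10 positive genes, 8 passed without array 95, 3 with array 95 turned and 0 in either orientation alone.

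The same fit also tested the response within each strain. In B6.C, 14 of 9239 probes (0.152%) passed, all 14 negative, and 530 (5.74%) had an unadjusted p under 0.05, 16 positive and 514 negative. Over all probes, called or not, 44.6% of responses were positive in B6.C and 43.5% in C57Bl6/J. In C57Bl6/J, 0 probes passed (0%, lowest adjusted p = 0.653) and 621 (6.72%) had an unadjusted p under 0.05, 482 positive and 139 negative. The unadjusted responses thus leaned to opposite sides in the 2 strains. B6.C has more arrays, and the median standard error of a response was 0.31 in B6.C and 0.432 in C57Bl6/J. The fit took a common residual spread for both strains at each probe, so this gap reflects mainly the number of arrays. Array weights estimated by limma, lower for arrays that scatter more, were 0.224 for C57Bl6/J arrays 95 and 97. They were 2.24 for arrays 11 and 96 and 0.257 to 6.73 over the B6.C arrays. Standard errors of C57Bl6/J and of the strain difference can therefore be too small. The B6.C calls depend on single arrays: their number was 0 with the sign of array 50 or of array 53 turned, 38 with that of array 97 or 95 turned, and 2 to 44 when 1 array was left out, lowest without B6.C array 47 and highest without C57Bl6/J array 97.

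None of the 14 called probes has a symbol here, and in all 14 the strain difference was negative in both orientations, at an unadjusted p under 0.05 in 11. The choice of probes low in B6.C favours such a difference, so it is a description. At the probe with the accession AF041970 the 8 B6.C arrays scored -3.77 to -1.33 (median -2.5), a response of -2.4 (SE 0.282, adjusted p = 0.00157 by limma), against 0.0961, 0.56, -0.469 and 0.233 on C57Bl6/J arrays 11, 96, 95 and 97. The strains did not overlap, and the difference was -2.5 (SE 0.489, unadjusted p = 0.000112, adjusted p = 0.613 by limma). The probe BC006920 behaved alike in B6.C, with scores of -3.03 to -0.955, and scored 0.278, 0.822, -0.984 and -1.18 on the C57Bl6/J arrays.

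Of the called probes, 7 of 14 belong to one run of consecutive sequence accessions, AF041862 to AF041974, that was noticed after the values were seen and gets no test. Of 99 probes in the run, 75 were tested. Their response was negative in B6.C at 66 of 75, with a median of -0.642, and in C57Bl6/J at 48 of 75, with a median of -0.283. An unadjusted p under 0.05 was reached at 40 of 75 in B6.C (53.3%, all negative, against 5.74% of all probes) and at 7 of 75 in C57Bl6/J (9.33%, against 6.72%). The strain difference was negative at 57 of 75, with a median of -0.57, and had an unadjusted p under 0.05 at 20 (26.7%, against 7.62%), 19 of them negative. Array by array, the median of the run was below 0 on 8 of 8 B6.C arrays, from -1.21 (array 47) to -0.178 (array 53), and was -0.24, 0.307, -0.267 and -0.604 on C57Bl6/J arrays 11, 96, 95 and 97, so the strains overlapped. Whether these probes share sequence is not known here, so they may not be 75 separate measurements.

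**Figure D3:**
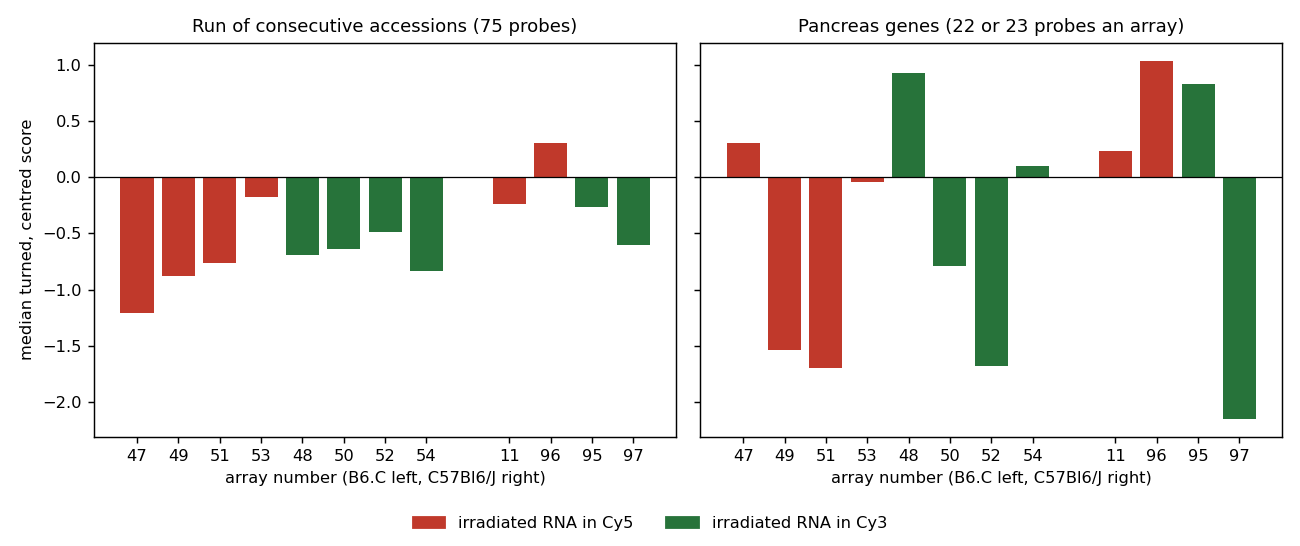
Median turned, centred score (vertical) on each array (horizontal, B6.C left and C57Bl6/J right) of the run of consecutive accessions and of the pancreas genes, coloured by the dye of the irradiated RNA. The run lies below 0 on all 8 B6.C arrays, between -1.21 and -0.178, whereas the pancreas genes lie on both sides of 0 in each strain.

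The responses of the 2 strains did not follow each other across probes. They had the same sign at 4336 of 9239 probes (46.9%) and opposite signs at 4903, and correlated at r = 0.00577 across probes, which are not independent. The share with one sign was 44.4%, 41.8%, 56.5% and 49.2% with the sign of array 97, 50, 53 or 95 turned. At 23 probes (0.249%) both strains had an unadjusted p under 0.05, which is 4.34% of those in B6.C and 3.7% of those in C57Bl6/J. Of these 23, 7 had the same sign (1 positive, 6 negative) and 16 opposite signs. The orientations within a strain had the same sign at 54.1% of probes in B6.C (r = 0.235) and at 49.3% in C57Bl6/J (r = -0.304).

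**Figure D4:**
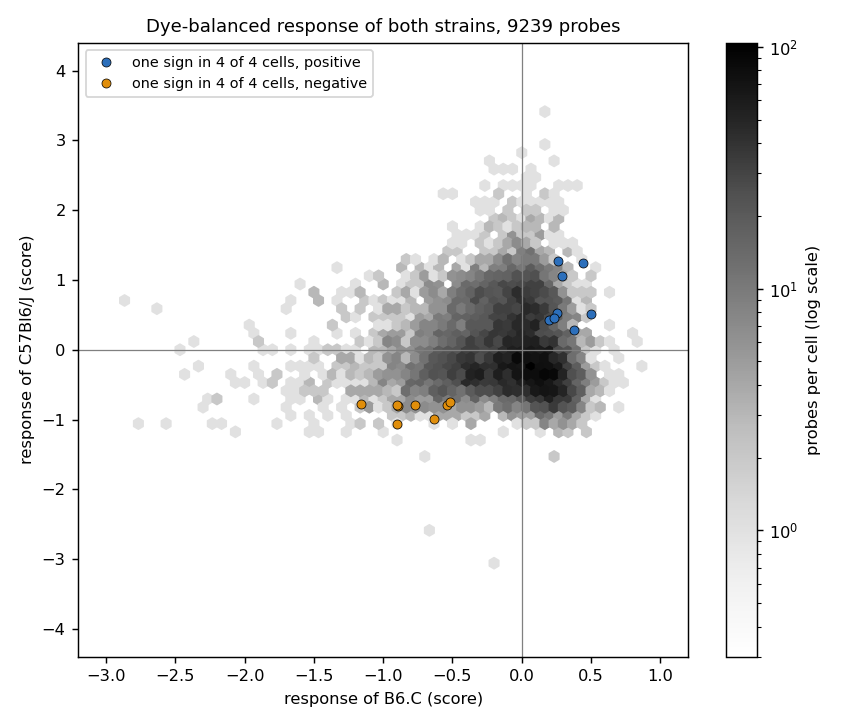
Response (score) of B6.C (horizontal) and of C57Bl6/J (vertical) for 9239 probes, with darker cells for more probes on a log scale. The cloud shows no common slope (r = 0.00577), and the marked genes, 8 on each side, had one sign in both strains and both orientations.

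Both strains and both orientations gave one sign at 1128 probes (12.2%), 161 positive and 967 negative, of which 334 have a symbol. Signs unrelated between strains and orientations would also agree at part of the probes, and the share was not set against that. The genes that follow are therefore a description and no evidence of a shared response. The 8 leading genes on each side of this group were taken by the larger of the 2 strains' p-values. Psmb2, a subunit of the proteasome core, was the one among the 16 with an unadjusted p under 0.05 in both strains. It scored -1.29 to 0.0495 on 7 B6.C arrays (median -1.11) and -0.668, -0.672, -0.0975 and -1.8 on C57Bl6/J arrays 11, 96, 95 and 97, for responses of -0.895 (SE 0.287) in B6.C and -0.809 (SE 0.376) in C57Bl6/J, with adjusted p of 0.431 and 0.653 (limma). The strains overlapped, and their difference was -0.0856 (SE 0.473). Psmd14, a deubiquitinase of the proteasome lid, had responses of -0.899 and -0.785, and Stard3, a cholesterol transporter of late endosomes, of -1.16 and -0.78 in B6.C and C57Bl6/J.

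The other genes low in both strains were Col9a1, a chain of cartilage collagen, Adamts1, a protease of the extracellular matrix, Ggh, an enzyme of folate turnover, Ftl1, the ferritin light chain, and Nlk, a kinase of the Wnt pathway. Their responses were -0.901 to -0.515 in B6.C and -1.06 to -0.753 in C57Bl6/J. With the sign of array 97 turned, the C57Bl6/J response became positive in 6 of the 8 genes low in both strains, the exceptions being Adamts1 and Stard3. Without centring of the arrays, the B6.C response was positive in 7 of these 8, the exception being Stard3.

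On the positive side of both strains stood Sdcbp, the scaffold protein syntenin, with responses of 0.503 in B6.C (SE 0.321) and 0.515 in C57Bl6/J (SE 0.454). S100a9, a calcium-binding protein of neutrophil granules, scored -0.716 to 1.72 in B6.C (median 0.329) and 2.1, 0.156, -1.2 and 3.91 on C57Bl6/J arrays 11, 96, 95 and 97, which is a wide spread in C57Bl6/J. H2-DMb2, which helps to load peptides on MHC class II, had responses of 0.375 and 0.279 in B6.C and C57Bl6/J. Bud23, Cdh11, Nme6, Wnt4 and Xrn2 had responses of 0.197 to 0.292 in B6.C and 0.424 to 1.27 in C57Bl6/J. None of the 8 reached an unadjusted p under 0.05 in B6.C by limma. With array 97 turned, the C57Bl6/J response was negative in 5 of the 8 (Sdcbp, Bud23, S100a9, H2-DMb2 and Wnt4), at -0.713 in S100a9, and with array 95 turned it was -0.143 in Nme6. It was also negative without array 97 in S100a9 (-0.037) and Wnt4 (-0.0612) and without array 96 in Sdcbp (-0.255). With array 53 turned, the B6.C response was negative in Nme6, H2-DMb2 and Wnt4.

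The agreement between these relatives was set beside that of all 15 pairs of the 6 strains, over 14520 probes measured in every strain. B6.C and C57Bl6/J had responses of one sign at 46.8% of these probes (r = 0.0128), rank 8 of 15 from the highest. The share and rank were 45.2% and 9 with array 97 turned, 43.1% and 13 with array 50, 54.9% and 5 with array 53, and 49.4% and 8 with array 95, so the rank is not settled. The highest was that of C57Bl6/J and DBA/2J (68.5%, r = 0.587, but 43.8% with array 97 turned) and the lowest that of A/J and Balb/C (42.3%). B6.C and Balb/C had one sign at 60.7% (r = 0.405), which is above the share of B6.C and C57Bl6/J. That share was 52.9% with array 50 and 56.5% with array 53 turned. Balb/C and C57Bl6/J had one sign at 61.6% (r = 0.343), so agreement with Balb/C was not particular to B6.C. The pairs share strains, and pairs were not tested against each other. The strains differed in how far their own orientations agreed, from 22.5% of probes with one sign in C3H/HeJ to 53.6% in B6.C.

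**Figure D5:**
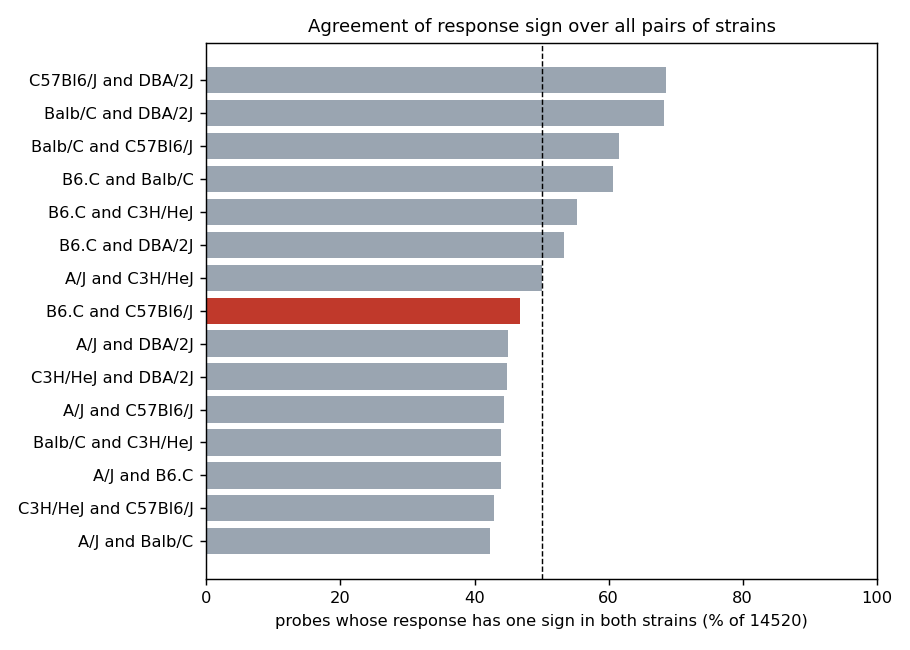
Share of 14520 probes whose dye-balanced response had one sign in both strains of a pair (horizontal, percent), for all 15 pairs of the 6 strains, with a dashed line at 50%. The bar of B6.C and C57Bl6/J (red) ends at 46.8%, between bars that run from 42.3% to 68.5%.

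Gene lists for the pathways of the radiation response held no called strain difference. In each list the counts are read beside all probes tested, of which 45.6% had a positive difference and 7.62% an unadjusted p under 0.05, with a median of -0.0803. Of 18 p53 target genes on the array, 6 were tested, and 3 differed to each side. Cdkn1a, the p21 inhibitor of cyclin-dependent kinases, had a difference of -0.00407 (SE 0.411). Xpc, which recognises DNA lesions in nucleotide excision repair, had a difference of -1.12 (SE 0.558), and Btg2, an antiproliferative protein, one of 0.908 (SE 0.481). Xpc scored -0.862 to 0.843 in B6.C (median -0.618) and 1.56, 1.07, -1.63 and 1.63 on C57Bl6/J arrays 11, 96, 95 and 97, whereas Btg2 scored -0.608 to 1.49 in B6.C (median 0.139) and was below 0 on all 4 C57Bl6/J arrays. The genes thus leaned to opposite sides, and neither had an unadjusted p under 0.05.

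Of 12 DNA damage and repair genes tested, 8 had a negative difference, with a median of -0.652 and 1 at an unadjusted p under 0.05. That gene was Fanca, a core protein of the Fanconi anaemia pathway, at -1.44 (SE 0.556). Brca2, a DNA repair gene, had a difference of -0.993 (SE 0.528), with responses of -0.787 in B6.C and 0.206 in C57Bl6/J. Of 15 apoptosis genes, 9 had a negative difference. Casp6, an executioner caspase, was below 0 on 7 of 8 B6.C arrays, from -2.88 through a median of -2.21 to 0.234, and scored -0.206, 1.46, -1.78 and 1.17 on C57Bl6/J arrays 11, 96, 95 and 97. Its B6.C response was -1.88 (SE 0.384, adjusted p = 0.0617 by limma) and its difference -2.05 (SE 0.666), -2.55 in Cy5 and -1.54 in Cy3. Hrk, an activator of apoptosis with a BH3 domain, had a difference of -1.23 (SE 0.491).

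Of 8 interferon response genes tested, 3 had a positive difference, 1 of them (Irf9, above) at an unadjusted p under 0.05, while Rsad2, the antiviral enzyme viperin, had one of -1.1 (SE 0.605). Rsad2 stayed near 0 on the C57Bl6/J arrays, at -0.0431 to 0.483, and ran from -2.47 to 0.896 on the B6.C arrays. In the antigen presentation list 7 of 12 genes had a positive difference. H2-Eb1, a chain of MHC class II, and Ciita, the activator of class II genes, had differences of 0.875 (SE 0.521) and 0.585 (SE 0.438).

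Lists of the cells of spleen were read as markers, since a bulk score cannot tell fewer cells of a type from less RNA per cell. Of 18 B cell genes on the array, all 18 had a value on at least 1 of the 12 arrays and 7 on all 12. Of the 8 tested, 5 had a positive difference, with a median of 0.383. Cd79a, the signalling chain of the B cell receptor, scored -0.0718 to 1.04 in B6.C (median 0.335) and -0.699, -0.783, 0.537 and -2.54 on C57Bl6/J arrays 11, 96, 95 and 97, for a difference of 1.26 (SE 0.519), which was -0.00781 with array 97 turned. Ms4a1, the B cell antigen CD20, had a difference of 0.618 (SE 0.507). Of 7 T cell and natural killer cell genes 5 had a negative difference, with a list median of -0.608. The list's median score ran from -0.228 to 0.642 over the B6.C arrays. It was 2.34, 1.19, -1.9 and 0.614 on C57Bl6/J arrays 11, 96, 95 and 97, so the strains overlapped. The 2 genes with one sign in both orientations went the other way. Il2rb, a chain of the IL-2 receptor, and Ccr7, a homing receptor, had positive differences of 0.758 and 0.648.

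Of 7 macrophage and dendritic cell genes, 4 had a positive difference. Siglec1, the sialoadhesin of marginal metallophilic macrophages, stood out with a difference of -1.82 (SE 0.59) that was alike in Cy5 (-1.68) and Cy3 (-1.95). It scored -2.8 to 0.00161 in B6.C (median -0.986) and 1.19, 0.574, -0.655 and 1.7 on C57Bl6/J arrays 11, 96, 95 and 97, with array 95 again among the B6.C values. Fcgr1, a high-affinity Fc receptor, had the opposite sign, 1.18 (SE 0.476), and -0.152 with array 97 turned. Of 9 neutrophil genes 6 had a negative difference, among them Mmp8, the neutrophil collagenase, at -1.16 (SE 0.536).

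Erythroid genes leaned to the negative side at 11 of 13, with a median difference of -0.463 and 2 at an unadjusted p under 0.05. The difference had one sign in both orientations at 5 of the 13, 4 of them negative. The list's median score ran from -0.879 to 0.83 over the B6.C arrays and from -0.203 to 0.599 over the C57Bl6/J arrays, so the strains overlapped. Ermap, an erythroid membrane protein, was below 0 on 7 of 8 B6.C arrays (lowest -2.16, median -0.81, highest 0.0316) and scored 1.62, 0.942, -0.437 and 0.147 on C57Bl6/J arrays 11, 96, 95 and 97, for a difference of -1.5 (SE 0.475). Slc4a1, the band 3 anion exchanger of red cells, had one of -1.23 (SE 0.648). Platelet genes split 3 to 4, with Itgb3 at 0.524 and Thbs1 at -0.89. The plasma cell list had 5 genes on the array and 0 tested.

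The matrix list, which holds the TGF-beta genes, leaned to the positive side at 11 of 16, with a median of 0.299. An unadjusted p under 0.05 was reached at 2, both positive (Fbn2 and Cxcl12). The list's median score ran from -0.433 to 0.156 over the B6.C arrays. It was -0.334, -0.498, 0.258 and -1.66 on C57Bl6/J arrays 11, 96, 95 and 97, so the strains overlapped and array 97 was the lowest. Cxcl12, a chemokine of stromal cells, scored -0.0615 to 0.545 on 7 B6.C arrays (median 0.187) and -0.867, -0.753, 0.326 and -2.05 on C57Bl6/J arrays 11, 96, 95 and 97, for a difference of 1.08 (SE 0.483). Ltbp2, a microfibril protein and the one tested gene among those named by the study, had a difference of -1.12 (SE 0.606), with scores of -0.872 to 1.27 in B6.C (median 0.169) and 2.48, 1.11, -0.745 and 2.35 on C57Bl6/J arrays 11, 96, 95 and 97. Its difference was 0.0576 with array 97 turned. The response of Ltbp2 was above 0 in both strains and both orientations, at 0.184 in B6.C (SE 0.35) and 1.3 in C57Bl6/J (SE 0.495). The paper reports that irradiation lowered Ltbp2 significantly. Which dye stands on top of the scores is unknown, so the directions cannot be compared.

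Pancreas lies against the spleen, and its genes are markers of neighbouring tissue. Of 29 pancreas genes on the array, 23 were tested, and 19 had a negative difference, with a median of -0.494, responses of -0.635 in B6.C and -0.112 in C57Bl6/J at the median, and 2 at an unadjusted p under 0.05. Pnliprp2, a pancreatic lipase, and Sst, somatostatin, had differences of -0.874 (SE 0.613) and -0.717 (SE 0.529), the second of which was 0.0581 without centring. The list's median score ran from -1.7 to 0.926 over the 8 B6.C arrays and was 0.237, 1.04, 0.835 and -2.15 on C57Bl6/J arrays 11, 96, 95 and 97, so the strains overlapped and array 97 was the lowest of 12. The part of pancreatic RNA in the strain difference was not tested. The list of adipose and muscle genes had 4 tested, with Pvalb, a calcium buffer of muscle, at -1.05 (SE 0.416) and Lep, leptin, at 0.845 (SE 0.565).

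Genes of general cell activity divided. Immediate early genes, the first to respond to a stimulus, had a negative difference at 10 of 12, with a median of -0.455. The list's median score ran from -0.686 to -0.0152 over the B6.C arrays. It was 0.226, 0.365, -0.485 and 0.399 on C57Bl6/J arrays 11, 96, 95 and 97, so array 95 lay within the range of B6.C. Atf3, a stress-induced transcription factor, differed by -1.59 (SE 0.675), -2.94 in Cy5 and -0.245 in Cy3, and Srf, the serum response factor, by -0.49 (SE 0.519), which was 0.285 without centring. Cytokine genes had a negative difference at 17 of 28, with Il2, the T cell growth factor, at -1.44 (SE 0.598) and the lymphocyte chemokine Xcl1 at 1.16 (SE 0.543). Heat shock genes had a positive difference at 8 of 12, including Calr, a chaperone of the endoplasmic reticulum, at 0.952 (SE 0.469), and the one at an unadjusted p under 0.05 was Tcp1, a subunit of the chaperonin of the cytosol, at -2.32 (SE 0.851).

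Antioxidant genes had a negative difference at 12 of 17, with Gsta4, a glutathione transferase, at -1.38 (SE 0.526) and Txn1, thioredoxin, at -1.35 (SE 0.543). Genes of the mitochondrial respiratory chain had one at 11 of 17, with Atp5l at -1.23 (SE 0.443) and Cox7c at 0.966 (SE 0.453). Atp5l, a subunit of ATP synthase, was below 0 on 8 of 8 B6.C arrays, at -1.45 to -0.236. Cell cycle genes split 10 to 9, with the cyclin Ccna1 at -1.1 (SE 0.508) and the phosphatase Cdc25c at -1.4 (SE 0.758). Of 49 ribosomal protein genes 23 had a positive difference, with a median of -0.0849 that lay next to that of all probes. Of the 17 with one sign in both orientations, 14 were positive and 3 negative, beside 2521 positive and 1976 negative over all probes of one sign. The list's median score ran from -0.75 to 0.645 over the B6.C arrays and from -0.23 to 0.344 over the C57Bl6/J arrays, so the strains overlapped. The 3 genes with an unadjusted p under 0.05 were positive. Among these, Rpl27 had a difference of 1.21 (SE 0.482). Glucocorticoid-responsive and circadian genes split 2 to 2 (Per1, a clock gene, at 0.78, SE 0.526), and of 8 germ cell genes 7 had a negative difference, 0 of them with one sign in both orientations. The exception was Pou5f1, at 0.354 (SE 0.52), or -0.647 with array 97 turned. With that array turned the difference also changed sign at Il2rb, Mmp8, Lep, Calr, Cdc25c, Xcl1 and Per1.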

How the data were processed

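Spleen RNA of irradiated and sham mice was hybridised to 2-colour oligonucleotide arrays with dye swaps. Per the paper's methods, poor or dim spots were removed, local background was subtracted and Lowess was applied. The authors deposited 1 table with a signed score per spot and array, from -29.5 to 31.5. On what scale, with which centring and which dye on top these were made stays unknown. The design foresaw log ratios, and the scores were used in their place.

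Control spots were left out and spots sharing an accession were averaged (21618 probes). RefSeq accessions of GRCm38.p6 named 6518 probes, and 15100 are unnamed here. A probe needed values on 3 of 4 B6.C and both C57Bl6/J arrays in each orientation. limma 3.58.1 in R 4.3.3 (with statmod 1.5.0) fitted strain by dye means and called Benjamini-Hochberg adjusted p under 0.05. Because labels do not pair swap arrays, which repeat the same mice, arrays were the units. P-values can be too small, since they treat repeats of the same mice as separate. The scripts were tested on simulated data. The number of arrays limits the precision.

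Members, lists and tests were chosen with earlier results of these data known. Genes named are up to 10 a side with the smallest p and one sign in both orientations, up to 8 a side with one response sign in 4 of 4 cells of strain and orientation, up to 2 a list, and those the study names. Other scalings, filters, weights, spreads, orientations and array signs were tried, and each array was left out. Turning array 95, turning arrays in the comparison of strain pairs and leaving out arrays 97, 50 and 53 were added after seeing the data.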

Additional observations from a re-analysis of the deposited data

Results flagged for a closer look

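At 78 named genes and the median of the pancreas genes, each in both strains (158 groups of arrays), 1 array stood apart from its strain by Dixon's criterion in 10 groups. Chance alone gives such a value in about 1 of 20 groups. In B6.C, array 53 stood apart at 5 genes: Fbn2 scored 1.39 (nearest array 0.411), H2-DMb2 1.55 (nearest 0.516), Lep 1.67 (nearest 0.235), Cox7c 1.48 (nearest 0.561) and Gsta4 -1.03 (nearest -0.354). At Adamts1, array 50 scored 0.632 (nearest -0.735), and at Xpc, array 49 scored 0.843 (nearest -0.438). Array 54 scored 0.38 at Atf3 (nearest -0.461) and array 52 scored -0.236 at Atp5l (nearest -0.941). In C57Bl6/J, array 97 scored -2.84 at Ggh (nearest -0.226). Arrays 53, 50 and 97, and array 95, which stood apart at none of these genes, have no settled direction.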

How the results depend on the processing

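Of 29 alternatives, 23 gave no call of a strain difference, as the main test did. With at least 1 value in each strain and orientation, 51 probes passed for the difference and 126 for the C57Bl6/J response. Arrays with irradiated RNA in Cy5 alone gave 1456 calls of a difference. Leaving out 1 array gave 0 to 1894 calls of a difference (1894 without array 95), 2 to 44 for the B6.C response (main 14) and 0 to 2400 for the C57Bl6/J response (2400 without array 95). It gave shares of 38.7% to 62.9% for one sign of the difference in both orientations (main 48.7%) and 40.3% to 52.4% for one response sign in both strains (main 46.9%).

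The B6.C response had 0 calls on values as deposited, with each probe's own spread, and with array 50 or 53 turned. It had 6 calls on scaled values, 26 with values on all 12 arrays, 26 with robust estimation, 64 with all 38 arrays, 368 with array weights, 38 with array 97 or 95 turned and 22 without arrays 97, 50 and 53. With array 95 turned, 1747 probes passed for the difference and 2126 for the C57Bl6/J response, and without arrays 97, 50 and 53, 1 passed for the C57Bl6/J response. The share with one sign of the difference was 33.4% as deposited, 45.2% scaled, 36.9%, 45.4%, 45.8% and 67.8% with array 97, 50, 53 or 95 turned, and 35.0% without arrays 97, 50 and 53. The share with one response sign was 55.2% as deposited, 43.3% scaled, 51.3% with array weights, 44.4%, 41.8%, 56.5% and 49.2% with array 97, 50, 53 or 95 turned, and 45.5% without arrays 97, 50 and 53. As deposited, the median difference of all probes was 0.698. The median difference of each gene list was read in every alternative. It moved by at least the standard deviation of the list's B6.C array medians in 103 readings, and by less in 564. The causes were not tested.

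Signs of named genes turned as follows. With array 97 turned, the difference was -0.00781 (Cd79a), -0.139 (Il2rb), -0.152 (Fcgr1), 0.0148 (Mmp8), 1.15 (S100a9), -0.397 (Lep), -0.00978 (Calr), 0.534 (Cdc25c), -0.0623 (Xcl1), -0.0357 (Per1), -0.647 (Pou5f1) and 0.0576 (Ltbp2), and the C57Bl6/J response -0.0884 (Sdcbp), -0.0158 (Bud23), -0.713 (S100a9), -0.0222 (H2-DMb2), -0.16 (Wnt4), 0.0906 (Psmb2), 0.728 (Col9a1), 0.635 (Ggh), 0.829 (Psmd14), 0.522 (Ftl1) and 0.0391 (Nlk). Leaving out 1 array gave differences of -2.08 (without array 95) to 0.479 (without array 97) for S100a9 and -0.286 (without array 97) to 0.994 (without array 95) for Pou5f1. The C57Bl6/J response then ran between -0.037 (without array 97) and 2.52 (without array 95) for S100a9, -0.0612 (without array 97) and 0.982 (without array 95) for Wnt4, -1.69 (without array 95) and 0.124 (without array 97) for Psmd14, and -0.255 (without array 96) and 1.28 (without array 11) for Sdcbp. With array 53 turned, the difference of Srf was 0.0405, and the B6.C response -0.0756 (Nme6), -0.0127 (H2-DMb2) and -0.0429 (Wnt4). With array 95 turned, the difference of Srf was 0.111 and the C57Bl6/J response of Nme6 -0.143. In that setting 35 other readings of named genes passed (adjusted p under 0.05, limma), unlike in the main fit, and 58 still did not. Among those passing were the differences of Cd79a (1.53), Casp6 (-2.94), Siglec1 (-2.14), Atf3 (-2.77) and Ltbp2 (-1.49). As deposited, the difference was 0.0581 (Sst) and 0.285 (Srf), and the B6.C response 0.106 (Psmb2), 0.04 (Col9a1), 0.0346 (Adamts1), 0.389 (Ggh), 0.0414 (Psmd14), 0.309 (Ftl1) and 0.486 (Nlk). Without arrays 97, 50 and 53, the difference was 0.356 (S100a9), -0.0714 (Itgb3), -0.0859 (Lep), 0.156 (Cdc25c) and -0.177 (Pou5f1), the C57Bl6/J response -0.037 (S100a9) and 0.124 (Psmd14), and the B6.C response of Nme6 -0.0117.

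No paired analysis was possible because the labels do not pair swap arrays. Responses and sign shares were not run within 1 orientation, which holds no dye balance. With no signal intensities used here, what dim spots limit is unknown.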
